A study of Mus musculus with 6 samples.

Results

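The genes of the mouse major histocompatibility complex (MHC) and of antigen processing were taken as every gene whose symbol starts with H2-, apart from H2-Ke6, together with B2m, Cd74, Ciita, Tap1, Tap2, Tapbp and Nlrc5. The rule reads gene symbols and no measured value, but it was set with earlier results of these data known. It gave 50 of the 24532 genes in the deposited gene table. There were 33 class I genes, 10 class II genes and 7 assembly and activator genes. A count in at least 3 libraries was found for 22 class I genes, 9 class II genes and all 7 assembly and activator genes. Of the remaining class I genes, 10 were listed at 0 in every library (H2-M1, H2-M9, H2-M10.1 to H2-M10.6, H2-M11 and H2-T3), and H2-M5 had 2 counts in rhCYGB replicate 1 only. H2-Ea-ps was listed at 0 in every library; the corresponding E alpha chain gene is a known pseudogene in C57BL/6 mice. H2-Eb2 had a count in 3 libraries but was too low to be tested, so the test covered 37 genes.

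Livers came from wild-type C57BL/6 mice that all ate for 4 weeks a diet with 0.1% DDC (3,5-diethoxycarbonyl-1,4-dihydrocollidine), an agent that damages bile ducts. In the last 2 of these weeks, 3 rhCYGB mice were injected 2 times a week with rhCYGB, the recombinant human form of the globin cytoglobin, at 2 mg/kg each time, and 3 vehicle mice were injected with normal saline. Livers were collected 2 days after the last dose, and polyadenylated RNA from each was sequenced. The labels give every animal its own number, so the replicates are separate mice. Neither age nor sex is stated in the labels. No liver without DDC was analysed here, and rhCYGB is a human protein given to mice.

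MHC class I molecules consist of a heavy chain and beta-2 microglobulin and show peptides from the cell's own proteins to CD8 T cells and natural killer cells. Nearly all nucleated cells carry them, and their peptides are pumped into the endoplasmic reticulum by the Tap1 and Tap2 transporter and loaded with the help of tapasin, the product of Tapbp. Class II molecules pair an alpha and a beta chain, are guided by the invariant chain Cd74 and are loaded in endosomes with the help of H2-DM. Dendritic cells, macrophages and B cells are their main producers, and the class II transactivator, encoded by Ciita, is required for their transcription. Nlrc5 is the related activator of class I genes.

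Values are estimated counts scaled as CPM (counts per 1e+06 of the library) after TMM adjustment, which corrects library totals for composition, unless another scale is named. They are given in the order of replicates 1, 2 and 3. Fold changes are on the log2 scale, rhCYGB relative to vehicle, with their standard error (SE). Library totals ran from 58422095 to 72431373, and Alb, the serum albumin gene of hepatocytes, was at 71843 to 141457 CPM in rhCYGB livers and 46059 to 76828 CPM in vehicle livers. The rhCYGB libraries were not alike. TMM factors were 1.18, 0.744 and 0.630 in rhCYGB libraries and 1.45, 1.07 and 1.18 in vehicle libraries. The slope of log2 level on transcript length, relative to the 6-library mean, was 0.211, -0.312 and -0.287 per doubling of length in rhCYGB libraries and 0.354, -0.016 and 0.051 in vehicle libraries. Replicates 2 and 3 of rhCYGB thus had the lowest TMM factors and the most negative slopes. Vehicle replicate 1 had the highest factor and the highest slope. Replicate 3 of rhCYGB also had 1.74% of its counts on Rn45s, a ribosomal RNA record, against 0.225% to 0.443% in the other 5 libraries, and the fewest genes with a count, 14933 against 15542 to 16290. That library holds the highest of the 6 values of Cd74, H2-K1, H2-DMa, Tapbp and H2-Q8, and the part of its RNA content in them was not tested. By edgeR with Benjamini-Hochberg adjustment, 0 of 14415 genes passed an adjusted p of 0.05 (0%), against 62 by DESeq2, and 1170 (8.12%) had an unadjusted p under 0.05, so 0 of the 37 tested MHC and antigen processing genes passed. Directions below are therefore of values that did not pass the test.

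Class II genes had lower values in rhCYGB livers. Of the 8 tested, 7 had a negative log2 fold change, against 53.2% of all genes, and the median was -0.86, against -0.06 over all genes. The negative median was kept at every other scaling and with any single library left out, between -1.37 with plain library totals and -0.50 without vehicle replicate 2. By unadjusted p under 0.05, 2 of the 8 had lower values, H2-DMb1 and H2-DMb2, where 2.06% of all genes did so. Without vehicle replicate 2, or without vehicle replicate 3, that number was 0. DESeq2, which called 3.28% of the genes left by its own filtering, gave none of the 8 an adjusted p, and limma-voom with sample quality weights called 3 of the 8 (H2-Ab1, H2-DMb1 and H2-DMb2), where it called 30% of all genes. In 3 of the 8, H2-DMb1, H2-DMb2 and H2-Ob, all rhCYGB values lay below all vehicle values, where 7.38% of all genes did so.

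Among the chains that present peptide on the cell surface, the beta chain gene H2-Ab1 (gene 14961, chromosome 17, 34263227 to 34269418, mm10) was at 23.6, 26.4 and 50.1 CPM in rhCYGB livers and 43.7, 82.5 and 58.9 CPM in vehicle livers. The groups overlapped only through rhCYGB replicate 3 and vehicle replicate 1, and the log2 fold change was -0.89 (SE 0.38, edgeR unadjusted p = 0.0533, adjusted p = 0.523). Its partner, the alpha chain gene H2-Aa (chromosome 17, 34282751 to 34287771), was at 24.2, 47.1 and 99.3 CPM in rhCYGB livers and 50.2, 107 and 76.2 CPM in vehicle livers. The second beta chain gene, H2-Eb1 (chromosome 17, 34305867 to 34316674), was at 17.8, 43.1 and 81.0 CPM in rhCYGB livers and 35.1, 86.7 and 53.0 CPM in vehicle livers. Both overlapped widely, with replicate 3 the highest rhCYGB liver each time. Their log2 fold changes were -0.45 (SE 0.53, edgeR adjusted p = 0.674) for H2-Aa and -0.30 (SE 0.57, adjusted p = 0.786) for H2-Eb1, and that of H2-Eb1 was positive without rhCYGB replicate 1 (0.086) or without vehicle replicate 2 (0.11). Without rhCYGB replicate 3 the log2 fold change was -1.12 for H2-Aa (edgeR unadjusted p = 0.0474, adjusted p = 0.937) and -0.93 for H2-Eb1 (adjusted p = 0.937). H2-Eb2, a beta chain gene with scarce transcripts, had a count in 1 rhCYGB library and 2 vehicle libraries and stayed under 0.1 CPM.

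The 3 surface chains did not keep their proportions across the rhCYGB livers. H2-Aa counts were 102%, 178% and 198% of H2-Ab1 counts in rhCYGB livers and 115%, 129% and 129% in vehicle livers. Vehicle livers were close to each other in this ratio, while rhCYGB replicates 2 and 3 lay above all of them and rhCYGB replicate 1 below. H2-Eb1 followed the same order, at 75.1%, 163% and 162% of H2-Ab1 in rhCYGB livers and 80.2%, 105% and 89.9% in vehicle livers.

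The invariant chain gene Cd74 (gene 16149, chromosome 18, 60803849 to 60812652) was at 66.2, 109 and 327 CPM in rhCYGB livers and 120.2, 251 and 184 CPM in vehicle livers. Replicate 3 of rhCYGB held the highest value of all 6 and rhCYGB replicates 1 and 2 the lowest, with a log2 fold change of -0.14 (SE 0.61, edgeR adjusted p = 0.903) that was positive without rhCYGB replicate 1 (0.23), rhCYGB replicate 2 (0.097) or vehicle replicate 2 (0.15). It was -1.08 without rhCYGB replicate 3 (edgeR unadjusted p = 0.0461, adjusted p = 0.937). Relative to H2-Ab1, Cd74 counts were 279.8%, 412% and 651% in rhCYGB livers and 275%, 304% and 312% in vehicle livers. The share of Cd74 FPKM on its shorter transcript (1223 bases) was 70.1%, 80.3% and 85.5% in rhCYGB livers and 70.2%, 68.9% and 70.1% in vehicle livers, with rhCYGB replicates 2 and 3 above the rest. These are the same libraries in which the length slope was most negative, and its part in this share was not tested.

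The H2-DM genes make the endosomal editor that swaps the invariant chain fragment for peptide. H2-DMb1 (gene 14999, chromosome 17, 34153191 to 34160229), a beta chain gene, was at 7.21, 8.50 and 7.52 CPM in rhCYGB livers and 9.29, 15.8 and 16.4 CPM in vehicle livers. The rhCYGB values were tightly grouped below the lowest vehicle value, and the log2 fold change came to -0.84 (SE 0.30, edgeR unadjusted p = 0.0259, adjusted p = 0.523). The neighbouring beta chain gene H2-DMb2 (gene 15000, chromosome 17, 34145416 to 34151095) was at 0.704, 0.742 and 0.505 CPM in rhCYGB livers and 1.18, 1.57 and 1.75 CPM in vehicle livers, again without overlap. Its log2 fold change was -1.20 (SE 0.41, edgeR unadjusted p = 0.0209, adjusted p = 0.523). The alpha chain gene H2-DMa (chromosome 17, 34122832 to 34139101) was at 8.11, 16.7 and 25.7 CPM in rhCYGB livers and 10.6, 19.9 and 19.5 CPM in vehicle livers. The groups overlapped and the log2 fold change was 0.01 (SE 0.46, edgeR adjusted p = 0.991), a sign that turned in 10 of the settings tried, among them log2(TPM + 0.1) at -0.82. H2-DMb1 counts were 88.9%, 50.9% and 29.3% of H2-DMa counts in rhCYGB livers and 87.3%, 79.2% and 83.9% in vehicle livers, so the ratio of the chains was even in vehicle livers and in rhCYGB replicate 1, and lower in rhCYGB replicates 2 and 3. H2-DMb1 and H2-DMb2 are closely similar neighbours, so how reads were divided between them is uncertain.

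H2-O, which restrains H2-DM and is made mainly by B cells, was scarce. H2-Ob was at 0.156, 0.167 and 0.0531 CPM in rhCYGB livers and 0.225, 0.610 and 0.342 CPM in vehicle livers, without overlap (log2 fold change -1.59, SE 0.70, edgeR unadjusted p = 0.0562, adjusted p = 0.523). H2-Oa was at 0.209, 0.148 and 0.212 CPM in rhCYGB livers and 0.296, 0.596 and 0.20 CPM in vehicle livers, with overlap through vehicle replicate 3.

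Ciita (gene 12265, chromosome 16, 10480072 to 10527640) had the most negative log2 fold change of the 37 tested genes. It was at 0.886, 0.464 and 0.266 CPM in rhCYGB livers, from 68, 25 and 10 counts, and at 2.44, 2.13 and 1.85 CPM in vehicle livers, from 206, 150 and 130 counts. The group means were 0.539 ± 0.317 CPM with rhCYGB and 2.14 ± 0.292 CPM with vehicle (SD, n = 3 mice each). Every rhCYGB liver lay below every vehicle liver, and this held for TMM-scaled CPM, CPM from plain library totals and TPM. On these scales 7.38%, 14.8% and 12.7% of all genes lay lower without overlap. The log2 fold change was -1.97 (SE 0.52, edgeR unadjusted p = 0.00631, adjusted p = 0.523). It was negative in every setting tried, from -2.53 without rhCYGB replicate 1, where it passed the threshold (edgeR adjusted p = 0.0215), to -0.69 on log2(TPM + 1), a scale that understates the change of low genes. Without rhCYGB replicate 1, 3391 of 14647 genes passed (23.2%), so a call there is common. Ciita transcripts are long, at 5167 to 5666 bases, and removing each library's trend on transcript length gave a log2 fold change of -1.66 (edgeR adjusted p = 0.398).

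**Figure D1:**
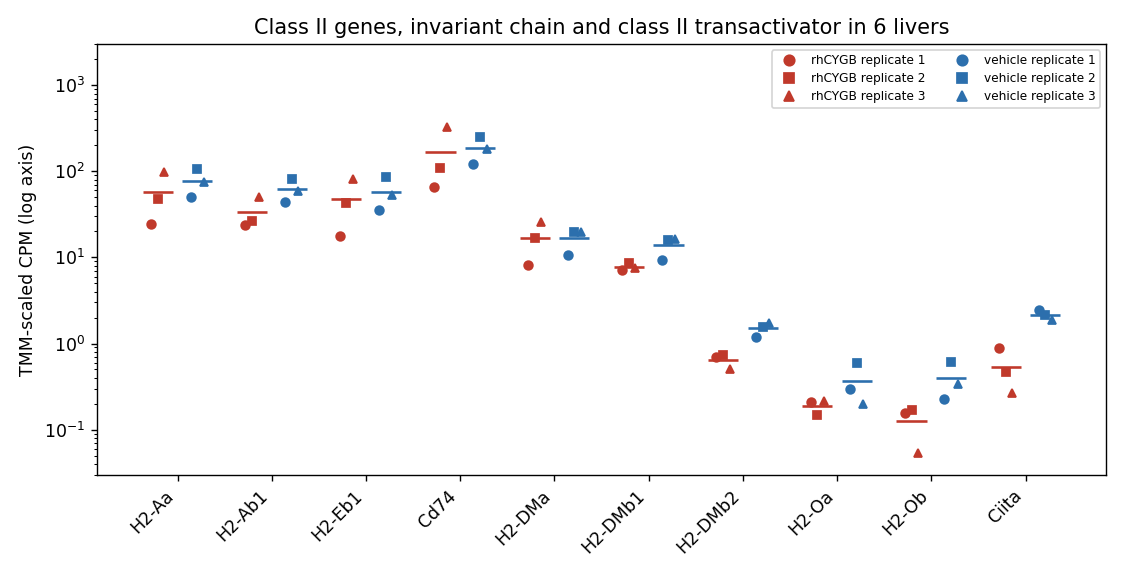
Level of each tested class II gene, Cd74 and Ciita in the 6 livers as TMM-scaled CPM on a log axis, with a point per liver (rhCYGB in red left of vehicle in blue, marker shape by replicate) and a bar at the group mean. The groups do not overlap for H2-DMb1, H2-DMb2, H2-Ob and Ciita, while rhCYGB replicate 3 is the highest rhCYGB liver for H2-Aa, H2-Ab1, H2-Eb1, Cd74 and H2-DMa.

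Class II promoters carry a run of boxes bound by a protein complex, which in turn recruits the class II transactivator. The windows of 3 genes are shown because these genes differ in which boxes can be read in them. RefSeq (GRCm38.p6) gave the 250 bases before the start for 8 of the 9 measured class II genes; H2-Ab1 and Ciita had no entry. All 8 genes held the Y box CCAAT on either strand in at least 1 window, a motif in 33.8% of 32851 mouse windows of this length. H2-DMa had more than 1 window, and the one at chr17:34122582-34122831 held no Y box. The X box core AACNGATG was found on either strand in 4 of the 8 (H2-Eb1, H2-Eb2, H2-DMb1 and H2-DMb2), against 1.98% of all windows. The core TGACG of the neighbouring X2 box was found in 1 of the 8, H2-Aa, against 17.8% of all windows, and there it lay on both strands in an overlapping pair. Capitals mark the X box core, the X2 core and the Y box, which reads ATTGG on the other strand. The windows are chr17:34152941-34153190 on the plus strand for H2-DMb1, chr17:34305617-34305866 on the plus strand for H2-Eb1 and chr17:34287824-34288073 on the minus strand for H2-Aa.
H2-DMb1: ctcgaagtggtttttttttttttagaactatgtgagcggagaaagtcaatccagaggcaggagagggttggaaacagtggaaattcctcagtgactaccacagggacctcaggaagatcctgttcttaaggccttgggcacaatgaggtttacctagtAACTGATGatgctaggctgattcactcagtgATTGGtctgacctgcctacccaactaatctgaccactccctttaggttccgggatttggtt
H2-Eb1: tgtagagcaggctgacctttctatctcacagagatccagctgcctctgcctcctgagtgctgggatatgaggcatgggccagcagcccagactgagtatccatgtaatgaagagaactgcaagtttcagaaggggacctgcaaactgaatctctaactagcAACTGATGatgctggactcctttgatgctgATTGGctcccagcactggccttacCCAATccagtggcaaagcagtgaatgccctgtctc
H2-Aa: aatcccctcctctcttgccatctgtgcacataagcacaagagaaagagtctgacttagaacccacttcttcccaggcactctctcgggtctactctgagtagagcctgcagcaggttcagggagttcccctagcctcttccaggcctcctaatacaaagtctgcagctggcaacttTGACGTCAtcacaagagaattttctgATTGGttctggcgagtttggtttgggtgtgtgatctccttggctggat
In H2-DMb1 and H2-Eb1 the X box core has the same letters and is followed by a Y box on the same side. In TPM both genes lay lower in rhCYGB livers without overlap, but so did H2-Aa, which holds no X box core in its window. In all, 7 of the 8 tested class II genes did so in TPM, where 12.7% of all genes did. No test compared the genes with each other. A match of letters is a description, not a site or a cause.

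Whether the class II sums overlapped depended on scaling. The class II sum was 82.0, 143 and 264 CPM in rhCYGB livers and 151, 315 and 226 CPM in vehicle livers by TMM-scaled counts, with overlap. By plain library totals it was 96.3, 106 and 167 CPM in rhCYGB livers and 218, 335 and 266 CPM in vehicle livers, without overlap. Per transcript length it was 139.7, 118 and 189 TPM in rhCYGB livers and 338, 439.8 and 359 TPM in vehicle livers, also without overlap. The ratio of group means, rhCYGB over vehicle, was 0.708, 0.451 and 0.393 on these 3 scales. With plain totals 5 of the 8 tested class II genes lay lower without overlap, where 14.8% of all genes did, and in TPM 7 of 8 did, where 12.7% of all genes did. H2-Oa was the exception in TPM, and H2-Oa, H2-Eb1 and H2-DMa with plain totals. The median of all genes also shifted between these scales, from -0.06 with TMM to -0.56 with plain totals and to -0.70 on log2(TPM + 0.1). The class II median on the same scales was -0.86, -1.37 and -1.29.

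A ratio of counts within a library needs no scaling between libraries. Class II counts were 2.03%, 2.42% and 4.43% of class I counts in rhCYGB livers and 5.88%, 6.73% and 5.56% in vehicle livers. No rhCYGB liver reached the lowest vehicle liver, and the means were 2.96% ± 1.29 with rhCYGB and 6.06% ± 0.603 with vehicle (SD, n = 3 mice each). Against the class I sum, 5 of the 8 class II genes lay lower without overlap, where 11.4% of all genes did. H2-Ab1 was 2.39%, 1.80% and 2.15% of H2-K1 counts in rhCYGB livers and 7.28%, 7.49% and 6.17% in vehicle livers. That ratio was even within each group and wide apart between them, with means of 2.11% ± 0.298 for rhCYGB and 6.98% ± 0.709 for vehicle. Against H2-K1, 7 of 8 class II genes lay lower without overlap, all but H2-Oa, where 17.1% of all genes did. Cd74 did so too, at 6.7%, 7.42% and 13.99% of H2-K1 in rhCYGB livers and 20.01%, 22.77% and 19.25% in vehicle livers. Against B2m, 5 of 8 did, where 8.09% of all genes did, and Cd74 overlapped there, at 5.18%, 5.99% and 17.2% of B2m in rhCYGB livers and 13.7%, 16.3% and 13.3% in vehicle livers. The denominators H2-K1, B2m and the class I sum were chosen after their values were seen, and H2-K1 itself had a positive log2 fold change.

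**Figure D2:**
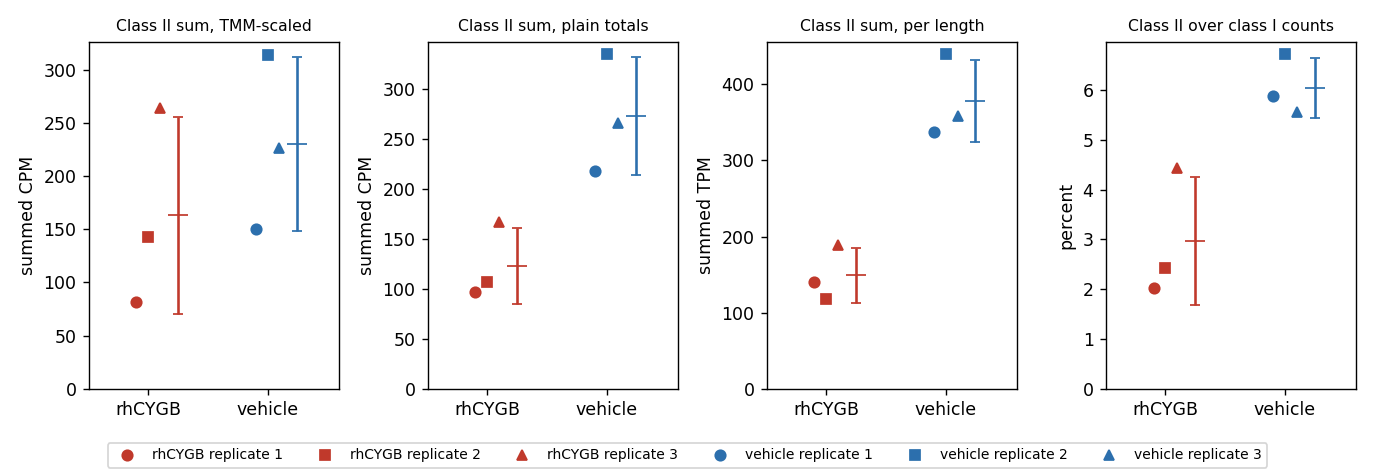
Class II sum per liver on 3 scales (TMM-scaled CPM, CPM from plain library totals, TPM) and class II counts as a percent of class I counts, with a point per liver (marker shape by replicate), rhCYGB left of vehicle, and the group mean with SD beside the points. The groups overlap with TMM scaling, at 82.0 to 264 CPM with rhCYGB and 151 to 315 CPM with vehicle, and are apart in the other 3 panels.

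Class I genes did not share a direction with TMM scaling. Of the 22 tested, 12 had a positive and 10 a negative log2 fold change, and the median was 0.07. That median was 0.09 with the size factors of DESeq2, with 13 positive and 9 negative. It was -0.46 with plain library totals, with 4 positive and 18 negative, and -0.84 on log2(TPM + 0.1), with 3 positive and 19 negative, scales on which all genes together had medians of -0.56 and -0.70. H2-Q8 was the only class I gene with an unadjusted p under 0.05, and the only one whose groups did not overlap; it was higher, where 6.06% of all genes were called higher at that p and 6.02% were higher without overlap. The class I sum was 4036, 5896 and 5972 CPM in rhCYGB livers and 2563, 4677 and 4070.3 CPM in vehicle livers. The ratio of group means was 1.41 with TMM, 0.956 with plain totals and 0.867 in TPM, with overlap on each scale.

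Per transcript length, B2m and a few class I genes held most of the signal. B2m, the light chain shared by class I molecules, averaged 2798 TPM over the 6 livers. H2-Q10, which encodes a secreted class I protein made by hepatocytes, followed at 2408 TPM, and the classical heavy chains H2-K1 and H2-D1 at 1156 and 608 TPM. H2-T23, which encodes the Qa-1 molecule read by the natural killer receptor CD94/NKG2A, was at 215 TPM and H2-T9 at 119 TPM. The other 17 measured class I genes were under 100 TPM, down to 0.427 TPM for H2-Bl. B2m and H2-Q10 overlapped in their ranges over the 6 livers (2035 to 3218 TPM for B2m and 1404 to 2868 TPM for H2-Q10), while H2-K1 lay below both in every liver and came closest to H2-Q10 in rhCYGB replicate 3.

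H2-K1 (gene 14972, chromosome 17, 33996012 to 34000347) was at 987, 1468 and 2335 CPM in rhCYGB livers and 601, 1101 and 954 CPM in vehicle livers. Replicates 2 and 3 of rhCYGB were above every vehicle liver and replicate 1 was below vehicle replicate 2. The log2 fold change was 0.85 (SE 0.45, edgeR unadjusted p = 0.0964, adjusted p = 0.523), and it was positive in every setting tried, though as small as 0.064 on log2(TPM + 1). Its main transcript (1646 bases) held 95.6%, 82.5% and 85.3% of its FPKM in rhCYGB livers and 78.3%, 80.4% and 81.5% in vehicle livers. All rhCYGB shares were above all vehicle shares, by a small margin apart from rhCYGB replicate 1.

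H2-D1 (gene 14964, chromosome 17, 35263094 to 35267497) was at 611, 649.6 and 833 CPM in rhCYGB livers and 412, 640.5 and 630.2 CPM in vehicle livers. The groups overlapped, with rhCYGB replicate 3 above the rest; the log2 fold change was 0.32 (SE 0.33, edgeR adjusted p = 0.647) and turned negative with plain totals (-0.23) and on log2(TPM + 1) (-0.41). H2-D1 counts were 61.9%, 44.3% and 35.7% of H2-K1 counts in rhCYGB livers and 68.6%, 58.2% and 66.1% in vehicle livers, so the classical pair kept a nearly even ratio in vehicle livers and not in rhCYGB livers. H2-Q10 (gene 15007, chromosome 17, 35470089 to 35474563) was at 1939.7, 3252 and 2252 CPM in rhCYGB livers and 1189.7, 2384 and 1985 CPM in vehicle livers. Its groups overlapped, with a log2 fold change of 0.42 (SE 0.42, edgeR adjusted p = 0.630) that turned negative with plain totals (-0.11) and on log2(TPM + 1) (-0.30). Against H2-K1 it was 196%, 222% and 96.4% in rhCYGB livers and 198%, 216% and 208% in vehicle livers, where rhCYGB replicate 3 alone departed from the others.

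**Figure D3:**
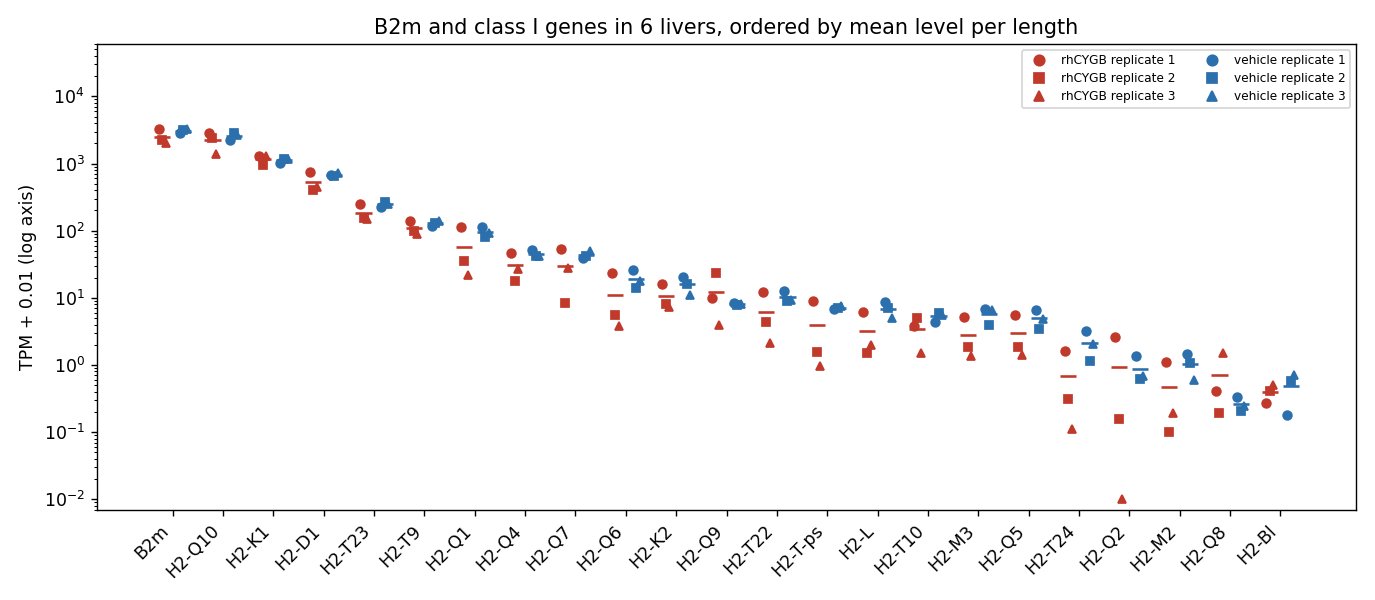
Level per transcript length of B2m and the 22 measured class I genes in the 6 livers, as TPM + 0.01 on a log axis, ordered by the 6-liver mean, with a point per liver (rhCYGB in red left of vehicle in blue, marker shape by replicate) and a bar at the group mean; the lowest point is H2-Q2 in rhCYGB replicate 3, which was listed at 0. B2m, H2-Q10, H2-K1 and H2-D1 lead in every liver, and rhCYGB livers spread more than vehicle livers for most of the lower genes.

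Promoters of the abundant class I genes are shown because H2-Q10 differs from H2-K1 and H2-D1 at an enhancer known to bind NF-kappaB. RefSeq (GRCm38.p6) windows were found for 12 of the 22 measured class I genes. The kB site core GGGATTCCC was found on either strand in 4 of them, H2-K1, H2-D1, H2-Q6 and H2-Q7, against 0.301% of all windows. The interferon element TTTCNNTT was found on either strand in all 12, against 21.3% of all windows, and the Y box in 11 of 12, all but H2-Q10. H2-Q10 held other letters at the place of the kB site, taken at the distance from the interferon element seen in H2-K1. Counted from 1 at the 5′ end of the core, with the core's base first, its differences there were G1A and T5C. The best match in H2-Q4 had C7T and that in H2-M3 had G2A. Capitals mark the kB site core, the interferon element and the Y box. The windows are chr17:34000334-34000583 on the minus strand for H2-K1, chr17:35262844-35263093 on the plus strand for H2-D1 and chr17:35469839-35470088 on the plus strand for H2-Q10.
H2-K1: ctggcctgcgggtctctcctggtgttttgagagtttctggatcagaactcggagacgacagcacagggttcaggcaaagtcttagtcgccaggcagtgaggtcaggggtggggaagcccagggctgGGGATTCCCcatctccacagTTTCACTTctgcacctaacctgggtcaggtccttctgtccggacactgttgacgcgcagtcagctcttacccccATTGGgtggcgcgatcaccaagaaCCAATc
H2-D1: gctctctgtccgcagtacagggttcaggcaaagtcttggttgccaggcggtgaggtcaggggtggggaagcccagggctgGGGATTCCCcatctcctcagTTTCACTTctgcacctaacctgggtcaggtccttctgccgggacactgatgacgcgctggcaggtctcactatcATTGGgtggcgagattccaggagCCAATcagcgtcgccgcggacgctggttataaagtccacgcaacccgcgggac
H2-Q10: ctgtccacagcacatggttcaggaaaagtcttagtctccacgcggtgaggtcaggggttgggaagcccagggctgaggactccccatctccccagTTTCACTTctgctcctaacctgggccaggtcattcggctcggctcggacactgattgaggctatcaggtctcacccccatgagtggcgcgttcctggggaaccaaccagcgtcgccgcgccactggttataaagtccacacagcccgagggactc
The windows of H2-K1 and H2-D1 share the kB site and the interferon element at the same distance from each other. Their levels, like that of H2-Q10 without the exact core, overlapped between the groups, and no match says only that these letters are not in this window.

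The other class I genes were weaker and many are near-identical copies. Apart from H2-K1, H2-D1 and H2-Q10, the 19 tested had log2 fold changes from -1.25 for H2-T24 to 2.45 for H2-Q8. H2-T23 was at 151, 190.3 and 212 CPM in rhCYGB livers and 104, 200.2 and 166 CPM in vehicle livers, with overlap. H2-Q1 ran the other way among the rhCYGB livers, at 106, 66.2 and 47.5 CPM, against 83.0, 93.0 and 92.2 CPM in vehicle livers. H2-M3, which presents formylated bacterial peptides, was at 3.38, 2.49 and 2.1 CPM in rhCYGB livers and 3.42, 3.15 and 4.65 CPM in vehicle livers. None of these had an unadjusted p under 0.05 by edgeR. H2-Q8 was at 0.195, 0.186 and 1.65 CPM in rhCYGB livers and 0.118, 0.113 and 0.128 CPM in vehicle livers (log2 fold change 2.45, SE 0.99, edgeR unadjusted p = 0.0407, adjusted p = 0.523). That difference rests on rhCYGB replicate 3, and without it the log2 fold change was 0.66 (edgeR unadjusted p = 0.353).

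Pairs of class I records lie on top of each other in the deposited coordinates, so the split of reads between them is the assembler's estimate. H2-Q8 shares its place with H2-Q6 (chromosome 17, 35424877 to 35428361), and their summed level was 11, 5.33 and 5.76 CPM in rhCYGB livers and 9.09, 8.0 and 8.74 CPM in vehicle livers. In the sum the rhCYGB livers no longer stood above the vehicle livers, and the log2 fold change was -0.23 (SE 0.35, edgeR adjusted p = 0.744). H2-Q9 alone was at 6.91, 32.9 and 6.61 CPM in rhCYGB livers and 4.57, 6.80 and 6.10 CPM in vehicle livers, while its overlapping record H2-Q7 (chromosome 17, 35439155 to 35443773) was at 32.8, 8.85 and 41.3 CPM in rhCYGB livers and 18.6, 31.7 and 32.7 CPM in vehicle livers. In rhCYGB replicate 2 alone, most reads of this locus went to H2-Q9. Their sum was at 39.7, 41.7 and 47.9 CPM in rhCYGB livers and 23.2, 38.5 and 38.8 CPM in vehicle livers, all rhCYGB values being higher by a small margin (log2 fold change 0.36, SE 0.28, edgeR adjusted p = 0.575). Among all genes taken singly, 6.02% were higher without overlap. H2-T9 and H2-T22 together were at 118, 159.8 and 163 CPM in rhCYGB livers and 78.6, 129.8 and 124 CPM in vehicle livers. H2-D1 and H2-L together were at 614, 651 and 835 CPM in rhCYGB livers and 415, 645 and 633 CPM in vehicle livers, nearly all of it H2-D1. Both sums overlapped between the groups.

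**Figure D4:**
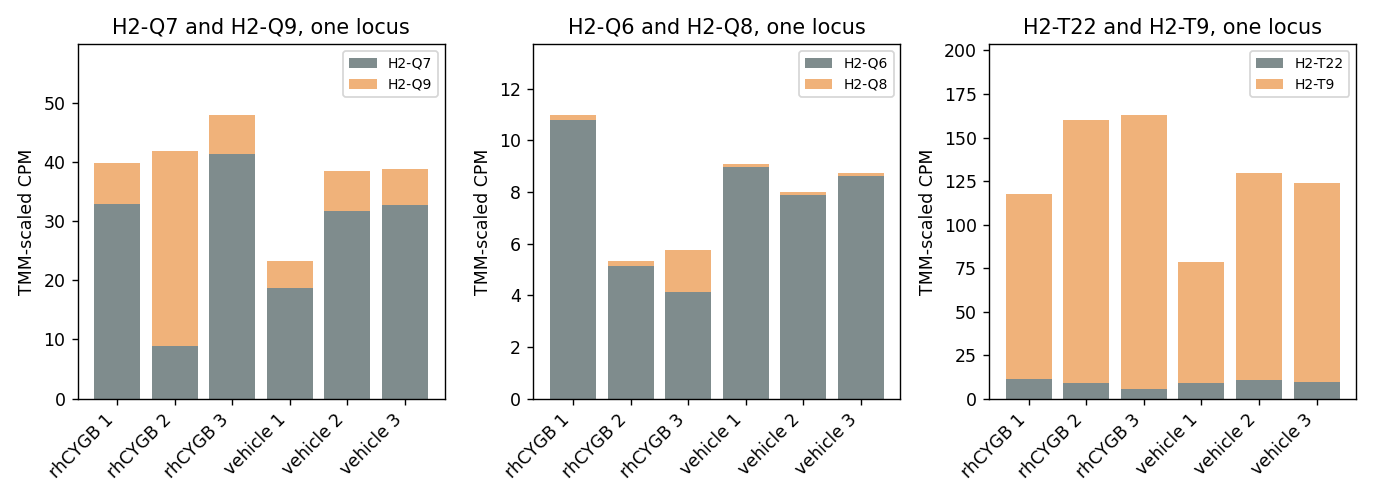
Stacked TMM-scaled CPM of 3 pairs of class I records that share a locus (H2-Q7 with H2-Q9, H2-Q6 with H2-Q8, H2-T22 with H2-T9) in each of the 6 livers, rhCYGB left of vehicle, with axes from 0. The split differs in single rhCYGB livers, such as H2-Q9 at 32.9 CPM in rhCYGB replicate 2, while the stacked totals vary less.

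None of the 7 assembly and activator genes passed the test, and their direction depended on scaling. With TMM 3 had a positive and 4 a negative log2 fold change, with a median of -0.03. With plain totals and on log2(TPM + 1) all 7 were negative, with medians of -0.56 and -0.69, scales on which all genes together had medians of -0.56 and -0.45. B2m (gene 12010, chromosome 2, 122147690 to 122153080) was at 1278, 1818 and 1901 CPM in rhCYGB livers and 875, 1539.7 and 1380.0 CPM in vehicle livers. Its log2 fold change was 0.40 (SE 0.38, edgeR adjusted p = 0.621) and turned negative with plain totals (-0.16), on log2(TPM + 1) (-0.33) and with the length trend removed (-0.039). B2m counts were 31.7%, 30.8% and 31.8% of the class I sum in rhCYGB livers and 34.1%, 32.9% and 33.9% in vehicle livers. This ratio was among the steadiest here, with means of 31.4% ± 0.541 for rhCYGB and 33.7% ± 0.650 for vehicle (SD, n = 3 mice each), and the groups did not overlap. Relative to the class I sum, 11.4% of all genes outside class I lay lower without overlap. That denominator was chosen after its values were seen.

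Tap1 (chromosome 17, 34187556 to 34197225), a subunit of the peptide pump, was at 12.3, 6.09 and 16.5 CPM in rhCYGB livers and 12.4, 18.7 and 16.0 CPM in vehicle livers. Its partner Tap2 (chromosome 17, 34204479 to 34216321) was at 18.8, 17.1 and 24.4 CPM in rhCYGB livers and 15.7, 26.0 and 20 CPM in vehicle livers. Both overlapped with TMM scaling, with Tap1 lowest in rhCYGB replicate 2. With plain totals both lay lower without overlap, where 14.8% of all genes did, and in TPM Tap1 did, where 12.7% of all genes did. Their log2 fold changes were -0.43 (SE 0.39, edgeR adjusted p = 0.608) for Tap1 and -0.03 (SE 0.28, adjusted p = 0.956) for Tap2, and that of Tap2 changed sign in 4 settings, as far as 0.18 without vehicle replicate 2. Tapbp (chromosome 17, 33919478 to 33929290) was at 110.1, 153 and 253 CPM in rhCYGB livers and 107, 158 and 130.0 CPM in vehicle livers, with the high value of rhCYGB replicate 3 behind its log2 fold change of 0.38 (SE 0.37, edgeR adjusted p = 0.622), which was -0.0067 without that library and -0.25 with plain totals. Nlrc5 (chromosome 8, 94472763 to 94527272) was at 15.3, 14.5 and 19.0 CPM in rhCYGB livers and 15.3, 11.2 and 14.0 CPM in vehicle livers. The activator of class I genes thus overlapped between the groups (log2 fold change 0.27, SE 0.25, edgeR adjusted p = 0.620, but -0.31 with plain totals and -0.37 on log2(TPM + 1)), while the activator of class II genes did not. Neither activator passed the test, and no test compared them with each other.

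**Figure D5:**
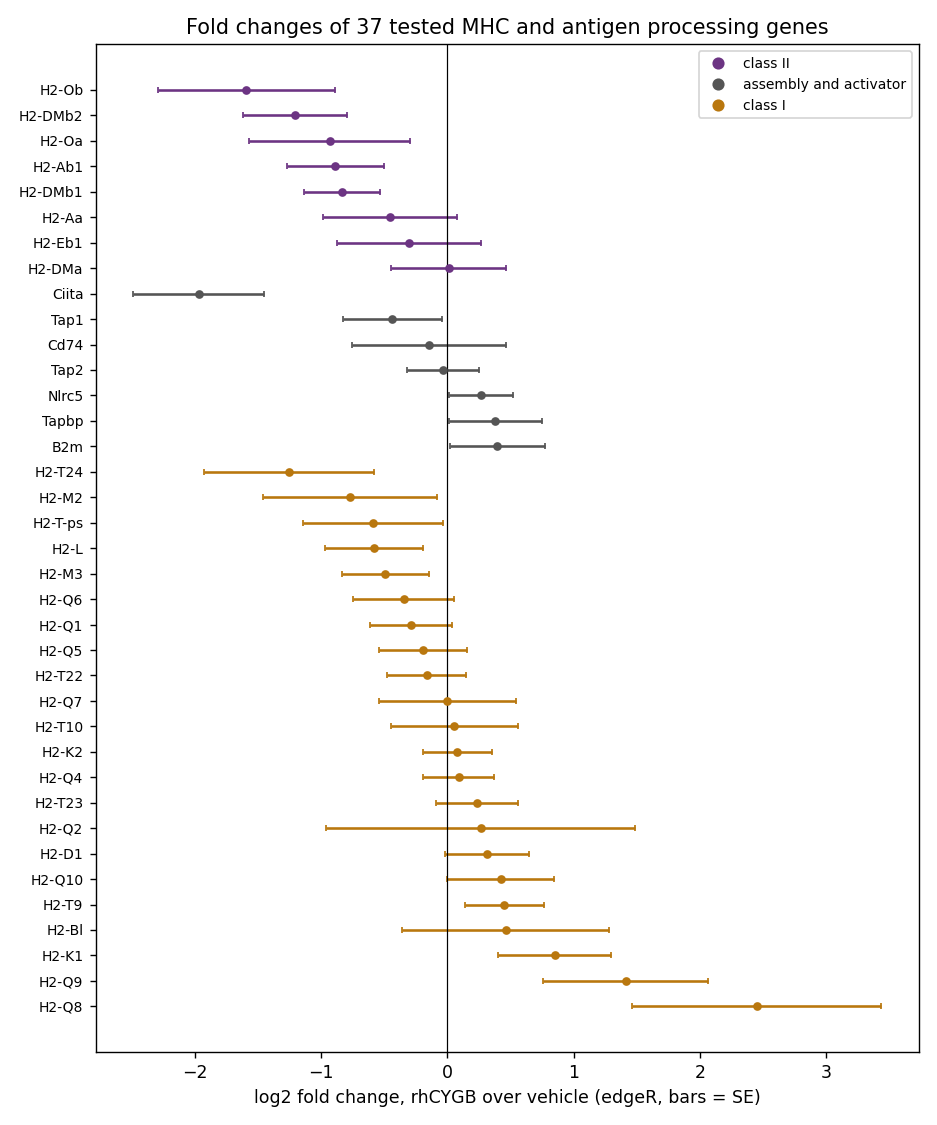
Log2 fold change of rhCYGB over vehicle for the 37 tested genes (edgeR with TMM; points with SE bars), grouped as class II, assembly and activator, and class I. Of the 8 class II genes 7 lie left of 0, Ciita lies at -1.97, and class I genes lie on both sides, with H2-Q8 and H2-Q9 farthest right.

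The wider pathway had 0 genes past the test. Its lists, and the cell type marker lists below, were chosen with earlier results of these data known. Peptide supply, made of immunoproteasome subunits, the PA28 activator and trimming peptidases, had 9 tested genes, 5 with a positive and 4 with a negative log2 fold change, and a median of 0.23. Psme1, a PA28 subunit, was at 128, 299 and 409 CPM in rhCYGB livers and 92.9, 165 and 163 CPM in vehicle livers, with rhCYGB replicates 2 and 3 well above the rest (log2 fold change 0.99, SE 0.47, edgeR adjusted p = 0.523). Psme2, the other PA28 subunit in this pair, was at 86.8, 169 and 205 CPM in rhCYGB livers and 63.9, 117 and 108 CPM in vehicle livers. The loading complex and quality control list had 6 tested genes, 5 of them with a negative log2 fold change, and a median of -0.39. Calr, the chaperone calreticulin, was at 623, 972 and 1329 CPM in rhCYGB livers and 966, 1191 and 772 CPM in vehicle livers, and Hspa5, the endoplasmic reticulum chaperone BiP, at 634, 375 and 352 CPM in rhCYGB livers and 1090.2, 790.0 and 584 CPM in vehicle livers. Both overlapped between the groups.

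The endosomal class II list had 10 tested genes, 4 with a positive and 6 with a negative log2 fold change, and a median of -0.28. Ctsd and Ctsb, endosomal proteases, were its most abundant members: Ctsd was at 1057, 2339 and 2519 CPM in rhCYGB livers and 985, 1443 and 1849 CPM in vehicle livers, and Ctsb at 1258, 1307 and 890.4 CPM in rhCYGB livers and 1042, 1548 and 1869.8 CPM in vehicle livers. Ctss, the protease that trims the invariant chain, was named after its values were seen, at 202, 257 and 186 CPM in rhCYGB livers and 238, 351 and 501 CPM in vehicle livers (log2 fold change -0.76, SE 0.36, edgeR adjusted p = 0.523). Each of these overlapped between the groups.

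The list of transcription factors had 12 tested genes, 10 of them with a negative log2 fold change, and a median of -0.31. Nfya, a subunit of the factor that binds the Y box, was at 11.4, 4.94 and 4.33 CPM in rhCYGB livers and 20.7, 11.1 and 13.3 CPM in vehicle livers, and it was the one factor with an unadjusted p under 0.05 (log2 fold change -1.13, SE 0.45, edgeR unadjusted p = 0.0405, adjusted p = 0.523). The subunit gene Nfyb also had a negative log2 fold change (-0.55, SE 0.39, edgeR adjusted p = 0.559). It was at 29.0, 15.0 and 10.3 CPM in rhCYGB livers and 25.0, 28.0 and 26.6 CPM in vehicle livers, with overlap. Nfyc lay the other way, at 22.1, 47.2 and 60.5 CPM in rhCYGB livers and 19.2, 24.9 and 25.4 CPM in vehicle livers. The subunits of the Y box factor thus did not all share a direction. Nfyb and Nfyc were named after their values were seen.

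Interferon gamma is a known inducer of Ciita and of class I genes. Ifng itself was listed at 0 in all 3 rhCYGB livers and in 2 vehicle livers and stood at 0.114 CPM in vehicle replicate 3. Of 14 tested genes of the interferon gamma route, 6 had a positive and 8 a negative log2 fold change, with a median of -0.38. Iigp1, an interferon-induced GTPase, was at 256, 142 and 216 CPM in rhCYGB livers and 106, 165 and 196 CPM in vehicle livers, with overlap. Jak1, a kinase of the receptor, was at 116, 57.7 and 53.4 CPM in rhCYGB livers and 126, 86.7 and 90.5 CPM in vehicle livers, also with overlap. Socs1, an inhibitor induced by the pathway, was at 0.300, 0.334 and 0.372 CPM in rhCYGB livers and 0.639, 0.582 and 0.884 CPM in vehicle livers. The receptor chain Ifngr1 was at 44.0, 40.7 and 27.3 CPM in rhCYGB livers and 49.5, 52.5 and 55.9 CPM in vehicle livers. Socs1 and Ifngr1 lay lower without overlap, where 7.38% of all genes did so. They were named after their values were seen and neither passed (edgeR adjusted p = 0.523 for each).

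Markers of the cell types that make class II molecules differed from each other in direction. In whole liver, fewer cells of a type and less RNA per cell cannot be told apart. All 7 tested dendritic cell markers of 9 had a negative log2 fold change, with a median of -0.68, and their summed level over the 9 was 12.7 to 18.7 CPM in rhCYGB livers and 26.2 to 35.8 CPM in vehicle livers. A single gene, Itgax, made up most of that sum in every liver. Itgax, which encodes CD11c, was at 6.82, 13.9 and 10.7 CPM in rhCYGB livers and 18.0, 21.5 and 29.7 CPM in vehicle livers (log2 fold change -1.14, SE 0.35, edgeR unadjusted p = 0.0124, adjusted p = 0.523). The chemokine receptor gene Xcr1, a mark of cross-presenting dendritic cells, stood at 0.0521, 0.111 and 0.106 CPM in rhCYGB livers and 0.651, 0.638 and 0.513 CPM in vehicle livers (log2 fold change -2.75, SE 0.59, edgeR unadjusted p = 0.00205, adjusted p = 0.523). Xcr1 was scarce in both groups, so its fold change rests on few reads. Itgax and Xcr1 lay lower without overlap, as did Clec9a, where 7.38% of all genes did so. The other tested markers overlapped, with log2 fold changes of -0.02 for Flt3, -0.14 for Batf3, -0.43 for Zbtb46 and -1.78 for Cd209a.

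The 3 monocyte markers Ly6c2, Ccr2 and Cx3cr1 all lay lower without overlap, where 7.38% of all genes did so, with a summed level of 3.45 to 16.1 CPM in rhCYGB livers and 23.9 to 36.7 CPM in vehicle livers. Macrophage and Kupffer cell markers did not share a direction, 4 of 7 having a positive log2 fold change, with a median of 0.02 and a summed level of 625 to 903 CPM in rhCYGB livers and 568 to 752 CPM in vehicle livers. Among these, Csf1r and Clec4f overlapped between the groups and Marco was higher without overlap, at 147, 244 and 214 CPM in rhCYGB livers and 109, 99.4 and 106 CPM in vehicle livers (edgeR adjusted p = 0.523). A share of 6.02% of all genes was higher without overlap. B cell markers were near 0, with 1 of 5, Cd79b, high enough to be tested and Pax5 listed at 0 in 5 libraries; their summed level was 0.886 to 1.86 CPM in rhCYGB livers and 0.584 to 1.5 CPM in vehicle livers. All 3 markers of leukocytes at large had a negative log2 fold change. Coro1a was at 15.2, 25.0 and 18.6 CPM in rhCYGB livers and 26.2, 31.2 and 32.8 CPM in vehicle livers, without overlap, while Laptm5 overlapped. Ptprc, which encodes CD45, was at 9.06, 0.445 and 0.133 CPM in rhCYGB livers and 26.4, 4.27 and 5.60 CPM in vehicle livers, a wide spread within both groups. Relative to Coro1a counts, the 3 surface chain genes together were 432%, 466% and 1241% in rhCYGB livers and 493%, 885% and 574% in vehicle livers, with overlap.

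Markers of the other cell types listed did not share a direction either. All 5 hepatocyte markers had a positive log2 fold change, with a median of 0.89 and a summed level of 84138 to 186671 CPM in rhCYGB livers and 54108 to 96015 CPM in vehicle livers. Among them, Cyp2e1, a cytochrome P450 gene, had a log2 fold change of 1.64 (SE 0.64, edgeR adjusted p = 0.523). The summed ranges overlapped. All 4 stellate cell markers had a negative log2 fold change, with a median of -0.74 and a summed level of 54.7 to 157 CPM in rhCYGB livers and 203 to 242 CPM in vehicle livers. The collagen gene Col1a1 (log2 fold change -1.11) and the receptor gene Pdgfrb (-0.81) were lower without overlap, where 7.38% of all genes were. Lrat (-0.67) and Reln (-0.42) overlapped between the groups. Of 5 bile duct markers 3 had a negative log2 fold change, with a median of -0.64 and a summed level of 195 to 588 CPM in rhCYGB livers and 948 to 1052 CPM in vehicle livers. Spp1 made up most of that sum in every liver. It was at 542, 299 and 113 CPM in rhCYGB livers and 975, 892 and 897 CPM in vehicle livers. The keratin genes Krt19 (0.62) and Krt7 (0.41) had a positive log2 fold change, and Epcam (-0.64) and Sox9 (-0.83) a negative one. Sinusoidal endothelial markers were split 2 and 2 in sign, with a median of -0.026, and T and NK cell markers 4 positive and 1 negative, with a median of 0.20. The part of all these cell markers in the values of the MHC genes was not tested.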

How the data were processed

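Liver RNA of 6 mice, 3 per group, was analysed from a gene table and a transcript table. Per the labels' protocols, libraries came from a stranded mRNA kit and were read as pairs. The authors deposited expected counts (estimated counts, given as whole numbers) and FPKM values per gene or transcript and library, with transcript lengths, made per the submitters' processing notes with FastQC 0.11.7, HISAT2 2.1.0, StringTie 1.3.4d and mm10. How counting used strand, and which annotation release it used, is not given in the sources used here, which leaves overlapping and antisense genes uncertain. Estimated counts carry the assembler's division of reads among copies, and any interval from them would cover counting error only. TPM values were computed here from the deposited FPKM by dividing by each library's sum. Totals were 58422095 to 72431373 per library.

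The deposited counts were tested in R 4.3.3 with edgeR 4.0.16 (filterByExpr, TMM, robust quasi-likelihood F test, Benjamini-Hochberg over the 14415 genes kept, threshold 0.05). SE was taken as the absolute log2 fold change divided by the root of F. Alternatives were DESeq2 1.42.0 size factors and test, upper-quartile factors, no filter, 1 CPM in 3 libraries, limma 3.58.1 (voom with sample quality weights, log2(TPM + 1), log2(TPM + 0.1)), a loess trend on transcript length removed, an adjusted p of 0.1 and each library left out. Chosen after seeing the data were plain library totals, leaving out rhCYGB replicates 2 and 3, and summing records at a shared locus. On simulated data the test recovered 0.5% of 2-fold, 29.5% of 4-fold and 83.5% of 8-fold changes of 200 genes, among 14233, 14249 and 14212 genes, with 1, 1 and 13 false calls, and it called 0 when nothing was changed.

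The members and gene lists were chosen with earlier results of these data known. Every measured member could be named: class II genes, H2-K1, H2-D1, H2-Q10 and the assembly and activator genes in each library, the other class I genes by range or an unadjusted p under 0.05, and from each wider list the genes with an unadjusted p under 0.05, filled up to 2 by highest mean CPM. 1 gene that this rule takes is not reported here. Genes named outside this rule include H2-T23, H2-Q1, H2-M3 and the records that share a locus. Promoter windows are from RefSeq (GRCm38.p6), trimmed to the 250 bases before the start and matched by symbol and gene ID. Coordinates are those of the deposited transcript table on mm10.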

Additional observations from a re-analysis of the deposited data

How the results depend on the processing

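By edgeR 0 genes passed, against 62 by DESeq2 (3.28% of 1890), 4323 by limma-voom with sample quality weights (30% of 14415) and 0 to 3391 with single libraries left out, the highest without rhCYGB replicate 1. Called members, 0 by edgeR, were 3 class II (H2-Ab1, H2-DMb1, H2-DMb2), 5 class I, 2 assembly and activator (Ciita, Tap1) and 22 wider pathway genes by voom, and 0, 0 to 2, 0 to 1 and 0 to 15 with single libraries left out. The class II median was negative in every setting: -1.29 on log2(TPM + 0.1), -1.37 with plain totals, and -1.06 to -0.50 with single libraries left out. The class I median was -0.21 by voom, -0.59 on log2(TPM + 1), -0.84 on log2(TPM + 0.1) and -0.46 with plain totals; that of assembly and activator genes was -0.69, -0.76 and -0.56 on the last 3 scales. The median of all genes moved likewise, to -0.45, -0.70 and -0.56, and to -0.18 with upper-quartile factors. Ratios of sums in plain CPM and TPM were 0.956 and 0.867 for class I, 0.844 and 0.781 for assembly and activator genes, and 0.393 for class II in TPM.

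Signs turned on log2(TPM + 1), log2(TPM + 0.1) and with plain totals for B2m (-0.33, -0.33, -0.16), H2-D1 (-0.41, -0.41, -0.23), H2-Q10 (-0.30, -0.30, -0.11), Nlrc5 (-0.37, -0.46, -0.31), Tapbp (-0.42, -0.43, -0.25) and H2-DMa (-0.78, -0.82, -0.64). They also turned for B2m (-0.039) and Tap2 (0.13) with the length trend removed, for Tapbp (-0.27) and H2-DMa (-1.05) without both rhCYGB replicates 2 and 3, and for H2-DMa with upper-quartile factors (-0.14), no filter (-0.0094), voom (-0.16) and the length trend removed (-0.083). With single libraries left out, signs turned for Cd74 (-1.08 to 0.23), H2-DMa (-0.43 to 0.34), H2-Eb1 (-0.93 to 0.11), Tap2 (-0.20 to 0.18) and Tapbp (-0.0067 to 0.61). The cause was not tested. Ciita, H2-Ab1, H2-DMb1 and H2-DMb2 were negative and H2-K1 and H2-Q8 positive in every setting that tested them. DESeq2's filtering left no class II gene with an adjusted p, so it gives no class II count. No paired analysis was possible because replicate numbers follow the order of deposition and pair no animals. With 3 mice a group, the simulation recovered 0.5% of 2-fold and 29.5% of 4-fold changes. Its genes were drawn independently, without the length slopes of these libraries, so recovery in the real data may differ.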

Other observations

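Receptors and partners of MHC molecules had 0 genes past the edgeR test and 0 of 15 tested had an unadjusted p under 0.05. In the lipid presentation list, Cd1d1, which shows lipids to natural killer T cells, was at 156, 123 and 155 CPM in rhCYGB livers and 89.4, 123 and 122 CPM in vehicle livers, without overlap by a narrow margin (log2 fold change 0.38, SE 0.26, edgeR adjusted p = 0.553). Mr1, which shows vitamin metabolites, was at 9.40, 3.32 and 3.29 CPM in rhCYGB livers and 8.57, 9.02 and 5.29 CPM in vehicle livers. Of 7 receptors for class I and II, 3 had a positive and 4 a negative log2 fold change, with Lilrb4a at 21.0, 45.1 and 43.5 CPM in rhCYGB livers and 28.2, 36.3 and 65.2 CPM in vehicle livers. Pirb, an inhibitory receptor for class I, was at 15.6, 44.5 and 46.3 CPM in rhCYGB livers and 18.9, 32.0 and 34.0 CPM in vehicle livers. All 5 tested costimulation genes had a negative log2 fold change, with a median of -0.64. Cd86 was at 7.10, 6.55 and 4.38 CPM in rhCYGB livers and 6.54, 6.98 and 7.01 CPM in vehicle livers, and Icosl at 3.71, 2.73 and 1.97 CPM in rhCYGB livers and 5.79, 4.68 and 3.55 CPM in vehicle livers. Cd274, which encodes PD-L1 and was named after its values were seen, lay lower without overlap, at 3.17, 1.61 and 2.87 CPM in rhCYGB livers and 4.18, 3.52 and 5.42 CPM in vehicle livers (log2 fold change -0.78, SE 0.38, edgeR adjusted p = 0.523). For Cd274 and Cd1d1, the shares of all genes without overlap were 7.38% lower and 6.02% higher.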
